A study of Mus musculus with 2 samples.

Results

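Skeletal patterning is set in the embryo by transcription factors that carry a homeobox or a paired box, the stretches that encode their DNA-binding domains. Pax1 and Pax9 are paired-box genes of the sclerotome, the part of the somite that forms vertebrae and discs, and Meox1, Meox2 and Nkx3-2 are homeobox genes that act with them there. Dlx5, Dlx6, Msx1 and Msx2 are homeobox genes of the limb and the face that respond to bone morphogenetic proteins (BMPs), and Barx2 is a homeobox gene of limb cartilage. These 10 genes were taken by name, with every probe set whose annotated symbol is exactly one of theirs, out of 18193 named genes on the array. They were read by 16 probe sets, 1 for each of 5 genes, 2 for each of 4 genes and 3 for Pax9.

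The cells were superficial zone cells, the chondrocytes of the surface layer of articular cartilage, from femur and tibia joint cartilage of postnatal day 4 ICR mice. They were grown in DMEM with serum. One culture was the control (n = 1) and the other was given 10 μM retinoic acid for 24 h (n = 1), the vitamin A metabolite that switches genes through nuclear receptors and alters axial and limb patterning when it is in excess in the embryo. RNA from each culture was read on 1 Affymetrix mouse expression array. Neither group has a replicate, so the ratios come without p-values or a check against spread between cultures, and each describes these 2 arrays. Whether 1 cell preparation gave both cultures, and from how many animals, is not stated in the labels.

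The values are MAS5 signals, a linear summary of each probe set in arbitrary units. A signal counted as measured when it lay above the median of its array, 26.5 for control and 29.7 for retinoic acid, because lower MAS5 signals carry little information. A gene above that floor on 1 array only has a bound in place of a ratio, and a gene was represented by its brightest probe set. Repeat probe sets of one gene differed with an SD of 0.30 in their log2 ratio over 4993 genes. That SD was 0.41 for probe sets with a mean signal of 25 to 100, and 0.27 for those of 100 to 400, and it covers measurement scatter within the same RNA only. The trimmed mean signal was 182 for control and 192 for retinoic acid. All 6 measured genes of a fixed list of retinoic acid responders were at least 2-fold higher on the treated array, namely Cyp26b1 (40.3 to 4624), Cyp26a1 (3.86 to 2332), Rarb (5.73 to 1929), Tgm2 (229.9 to 7329), Dhrs3 (890 to 3761) and Crabp2 (523 to 1963), which fits the label of that array. Stra6, the remaining gene of that list, was below the floor on both. Prg4, which encodes lubricin and marks the superficial zone, was well above the floor on both arrays (1920 and 1148). Of 10 measured superficial zone and joint markers 3 were past 2-fold on the higher side and 1 on the lower (2 after quantile normalization), with a median log2 ratio of −0.50. The count on the higher side was 2 with each gene's median across its probe sets, or with only probe sets unique to a transcript. The Wnt antagonist gene Sfrp2 read 3960 and 272, Wnt9a 15.4 and 309 (below the floor in control), Clu 1027 and 6138, and Vcam1 449 and 1033.

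Meox1 was lower by the largest ratio of the 10 genes with retinoic acid, Dlx5 was also lower, and Pax1 was higher. Of the 10 genes 8 were measured, and 6 of them lay above the floor on both arrays. Of the 8, 1 was at least 2-fold higher, against 6.54% of all 11884 measured genes, and 2 were at least 2-fold lower, against 4.34%. With so few genes 1 gene makes 12.5% of the group. At least 4-fold, 1 of 8 was lower (background 0.757%) and 0 were higher (background 1.79%). Their log2 ratios, counting bounds at their value, had a median of −0.27, beside 0.01 over all measured genes. Over the 6 above the floor on both arrays the median was −0.43. Below 0 lay 5 of the 8 (Dlx6 by a bound), as did 49.0% of measured genes with a ratio. In RNA from a whole culture, fewer cells that express a gene and less RNA of it per cell cannot be told apart.

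**Figure D1:**
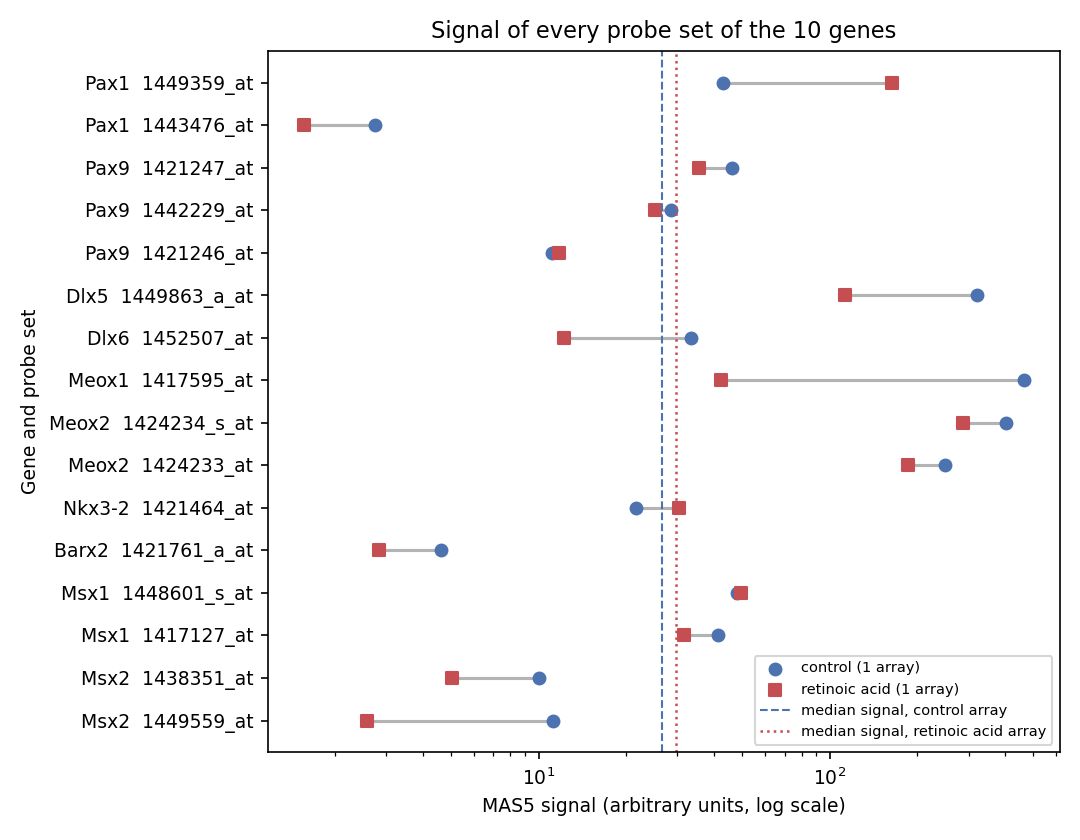
MAS5 signal (log scale) of each of the 16 probe sets on the control array (circles) and the retinoic acid array (squares), with 1 array per group and vertical lines at the array medians of 26.5 and 29.7. Meox1 runs from 464 to 42.3 and Dlx5 from 320.1 to 112, Pax1 runs up from 42.9 to 163, and the probe sets of Msx2 and Barx2 lie left of both medians.

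The paralogs Pax1 and Pax9, which overlap in function in the developing spine, are shown here by the sequence just before their annotated starts. They are the pair whose log2 ratios had opposite signs, although that of Pax9 (−0.37) was within the 0.41 scatter of dim probe sets. Each run holds the 250 bases before the start, from RefSeq on GRCm38.p6, 5′ to 3′ on the gene's own strand, which is the plus strand for both genes. Capitals mark CCAAT, a box found in many promoters, searched on both strands as CCAAT and ATTGG. Pax1 lies at chr2:147364744-147364993 and Pax9 at chr12:56695221-56695470.
Pax1: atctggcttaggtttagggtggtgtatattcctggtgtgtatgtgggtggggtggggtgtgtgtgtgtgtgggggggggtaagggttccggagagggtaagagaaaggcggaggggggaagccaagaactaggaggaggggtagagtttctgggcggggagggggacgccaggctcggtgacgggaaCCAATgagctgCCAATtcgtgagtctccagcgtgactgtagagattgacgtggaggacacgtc
Pax9: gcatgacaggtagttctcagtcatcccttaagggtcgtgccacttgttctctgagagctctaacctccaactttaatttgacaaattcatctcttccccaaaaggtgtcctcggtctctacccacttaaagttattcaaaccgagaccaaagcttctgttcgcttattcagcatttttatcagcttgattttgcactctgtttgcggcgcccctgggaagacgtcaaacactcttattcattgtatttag
The Pax1 run holds CCAAT 2 times, starting 63 and 52 bases before the start, and the Pax9 run holds none; it is in 33.8% of all 32851 such runs. G and C made up 58.8% of the Pax1 run and 43.6% of the Pax9 run, beside a median of 52.4% over all runs. Neither run holds AGGTCA, the core letters bound by retinoid and related nuclear receptors, on either strand, and 14.02% of all runs do. Of the 10 genes 6 had a run in the table (Pax1, Pax9, Meox2, Nkx3-2, Msx1 and Msx2), and AGGTCA was in 0 of the 6. CCAAT was in 3 of the 6, those of Pax1, Msx1 and Msx2. TAATTA, the core letters bound by many homeodomains, was in 1 of the 6, that of Msx2, and in 4.84% of all runs. These matches describe the letters of the window only.

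Pax1 read 42.9 in control and 163 with retinoic acid with its brighter probe set. It was 3.80-fold higher with retinoic acid, a log2 ratio of 1.93, and 235 of 11733 genes with a ratio had a higher one, counting bounds at their value. The control signal lay just above the floor, so the size of the ratio leans on a dim value: with the floor at the 70th percentile of each array Pax1 has only a bound, a log2 ratio of at least 0.42. Its second probe set read 2.74 and 1.56, below the floor on both arrays, and gives no ratio. Pax9, its paralog, read 46.1 and 35.6 with its brightest probe set and was 1.29-fold lower, a log2 ratio of −0.37. The second probe set of Pax9 read 28.5 and 25.1, above the floor on the control array only, and the third read 11.1 and 11.8, below it on both. The ratio of Pax9 is within the 0.41 scatter of dim probe sets, and the log2 ratios of Pax1 and Pax9 differed by 2.30.

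Meox1 and Meox2 are paralogs expressed in the somites, where Meox1 acts in the joints and vertebrae of the neck and Meox2 in limb muscle. Meox1 read 464 in control and 42.3 with retinoic acid. It was 11.0-fold lower, a log2 ratio of −3.45, and 13 of 11733 genes with a ratio had a lower one. The treated signal was still above the floor, but only 1 probe set reads this gene, so no second probe set checks the value. Meox2 read 402 and 288 with one probe set and 249 and 186 with the other. Both probe sets put Meox2 lower with retinoic acid, by 1.40-fold and 1.34-fold, with log2 ratios of −0.48 and −0.42. The pair lay on the same side of 0, and the log2 ratio of Meox1 minus that of Meox2 was −2.97. With the floor at the 70th percentile, where the treated signal of Meox1 falls below it, the log2 ratio of Meox1 is at most −1.86, still past 2-fold.

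Dlx5 and Dlx6 encode Distal-less homeodomain factors that promote chondrocyte maturation and bone formation, and they are next to each other among the protein-coding genes of their chromosome in the RefSeq table. Dlx5 read 320.1 in control and 112 with retinoic acid. It was 2.85-fold lower, a log2 ratio of −1.51, with 210 of 11733 genes with a ratio lower still. Dlx6 read 33.3 in control and 12.3 with retinoic acid, so it was measured on the control array only and was at least 1.12-fold lower. As deposited, without a floor, the Dlx6 signals give a log2 ratio of −1.44, close to that of Dlx5, but the treated value lies below the floor. Each of the pair was read by 1 probe set, and that of Dlx5 is of a type that reads several transcripts of one gene. Dlx6os1 and Dlx6os2, RNAs named for the Dlx6 locus and looked at after the values were seen, were below the floor on both arrays (17.2 and 15.1, and 0.713 and 1.02).

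Nkx3-2 encodes a homeodomain repressor that Pax1, Pax9 and the Meox factors activate in the sclerotome and that favours the chondrocyte fate. It read 21.5 in control and 30.5 with retinoic acid, above the floor on the treated array only, and was at least 1.15-fold higher. That bound is within the scatter of dim probe sets. Barx2, whose product binds regulatory elements of cartilage genes, read 4.63 and 2.83 and was not measured on either array.

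Msx1 and Msx2 encode homeodomain repressors that BMP signalling induces in limb and facial mesenchyme. Msx1 read 47.9 and 49.5 with its brighter probe set, a log2 ratio of 0.05. Its other probe set read 41.4 and 31.6, a log2 ratio of −0.39, so the pair of probe sets lies on opposite sides of 0 and gives no direction for Msx1. Msx2 read 10.0 and 5.04 with one probe set and 11.2 and 2.58 with the other, all below the floor. Msx2 was therefore not measured, although both of its probe sets were lower on the treated array. As deposited and without a floor, 12 of the 16 probe sets were lower on the treated array, beside 47.8% of all 34945 probe sets with 1 gene symbol. By the brightest probe set of each gene, 7 of the 10 genes were lower. Both counts include signals below the floor, which carry little information. Of the 16 probe sets 5 were below the floor on both arrays and 8 above it on both.

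**Figure D2:**
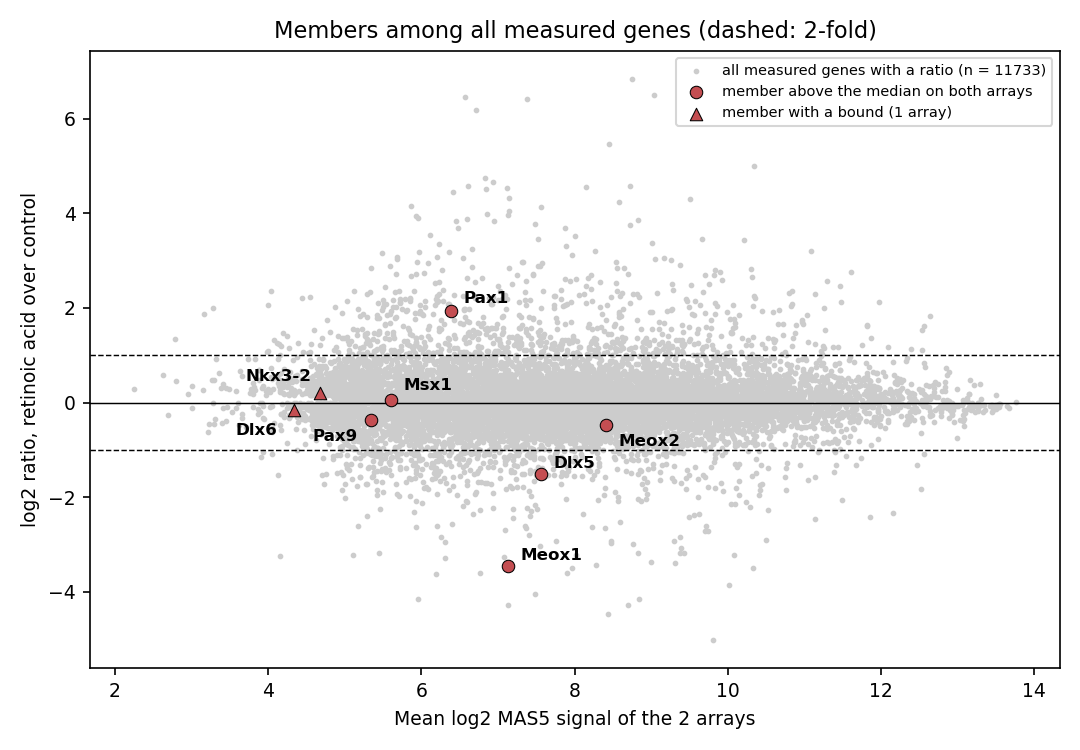
Log2 ratio of retinoic acid over control against the mean log2 signal of the 2 arrays for the 11733 measured genes with a ratio (grey), with the 8 measured members in red, circles for ratios and triangles for bounds. Meox1 (−3.45) and Dlx5 (−1.51) lie below the lower dashed line at 2-fold, Pax1 (1.93) lies above the upper one, and the other 5 lie between the lines.

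The other genes of the same families were mostly below the floor. Of 12 on the array 3 were measured, and 0 of them were past 2-fold, but with the floor at the 30th percentile 1 was past it on the higher side and 2 on the lower. Barx1, a homeobox gene of the stomach, the jaw and joints, read 342 and 321 and had a log2 ratio of −0.09. Dlx2 read 42.9 and 43.5, with a log2 ratio of 0.02. Dlx3 was above the floor on the treated array only (11.4 and 29.96). The remaining Pax genes on the array, Pax3 to Pax8, were below the floor on both arrays, as were Dlx1, Dlx4 and Msx3.

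Other homeobox genes of the skeleton lay mostly on the higher side. Of 12 measured, 10 lay above 0, Emx2 and Lhx2 by bounds only, and some were close to 0, such as Prrx2 (0.05) and Pitx1 (0.24). Over all measured genes with a ratio 49.0% lay below 0. Past 2-fold on the higher side were 2 of the 12, beside 6.54% of all measured genes. None of the 12 was past 2-fold on the lower side, and their median was 0.42 on the log2 scale, beside −0.27 for the members. Irx3, an Iroquois gene of limb patterning, read 334 and 1488 and was 4.46-fold higher. Six4 read 127 and 307 and was 2.41-fold higher, with log2 ratios of 0.96 and 1.49 for its 2 other measured probe sets. Irx5, of the same Iroquois family as Irx3, read 51.3 and 96.2 and was 1.87-fold higher. Shox2, a gene of the proximal limb, read 1234 and 842 and was 1.47-fold lower. Among the 15 measured genes of these 2 lists the log2 ratios closest to that of Pax1 over the 2 arrays were those of Irx3 (2.16), Six4 (1.27) and Irx5 (0.91). For Dlx5 and Meox1 the closest were the same genes, Shox2 (−0.55), Lhx9 (−0.23) and Barx1 (−0.09), which lay 0.96 to 3.36 away. None of the 15 was as low as Dlx5.

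Partners of the Pax and Meox genes in the sclerotome and somite went both ways. Of 12 measured, 6 lay above 0 and 6 below, with Ihh above and Sim1 and Tcf15 below by bounds only. Past 2-fold were 2 on the higher side and 0 on the lower. The median was 0.02 (0.67 with the floor at the 70th percentile), and 0.50 over the 9 above the floor on both arrays. Eya2, which encodes a transcriptional cofactor that works with homeodomain proteins, read 61.8 and 300.4 and was 4.86-fold higher. Twist1, a transcription factor gene of mesenchyme, read 553 and 1266 and was 2.29-fold higher. The forkhead gene Foxc1 read 1476 and 2846 and was 1.93-fold higher, and Eya1 read 168 and 302 and was 1.80-fold higher. Shh, the notochord signal that induces Pax1 and Pax9 in the embryo, was below the floor on both arrays, as were the Hedgehog target genes Gli1 and Hhip. Ptch1, a Hedgehog receptor and target gene, was well above it on both (473 and 329, a log2 ratio of −0.52), as were Gli2 and Gli3, and the ligand gene Ihh was just above it with retinoic acid only (19.9 and 29.74).

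**Figure D3:**
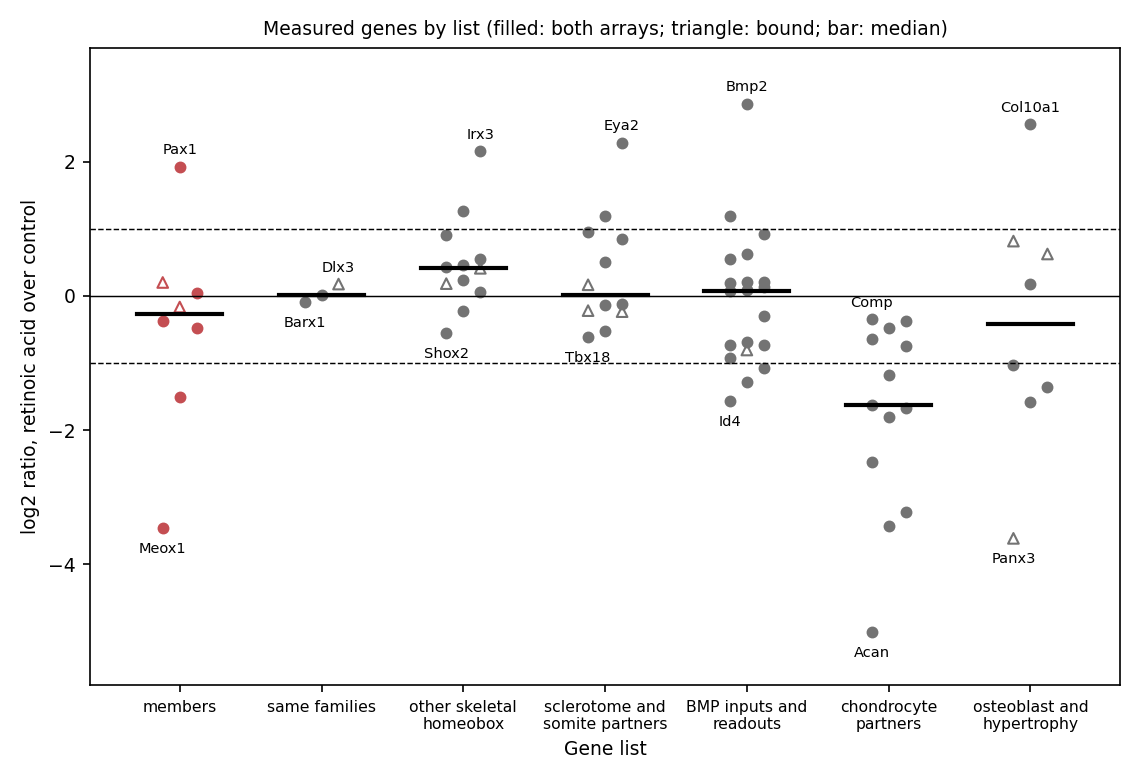
Log2 ratio of retinoic acid over control for the measured genes of 7 lists, 1 point per gene (filled for a ratio, triangles for a bound), with the median of each list as a bar and dashed lines at 2-fold. Members span −3.45 to 1.93 around a median of −0.27, other skeletal homeobox genes sit mostly above 0, and all 13 chondrocyte partners sit below 0.

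BMP signalling, which switches on Msx and Dlx genes, had members on both sides. Of 20 measured genes 2 were past 2-fold on the higher side and 3 on the lower, and the median was 0.08. With the floor at the 70th percentile, or with the median signal as an offset, 1 was past 2-fold on the higher side and 2 on the lower. The ligand gene Bmp2 read 37.5 and 273 and was 7.30-fold higher, and Bmp7 read 43.7 and 100.3 and was 2.29-fold higher. Both ratios lean on a dim control signal. The receptor gene Bmpr1b read 125 and 51.3 and was 2.44-fold lower, and Grem1 read 828 and 391 and was 2.12-fold lower. Id4, of a family of BMP target genes, read 332 and 112 and was 2.95-fold lower, with log2 ratios of −1.43 and −0.93 for its other measured probe sets. The rest of that family did not move together, with log2 ratios of −0.74 for Id1, 0.09 for Id2 and 0.21 for Id3. Smad6 and Smad7 of the same list lay on the higher side, at 0.63 and 0.55.

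Chondrocyte genes listed as partners or targets of Nkx3-2, Pax1, Pax9 and Barx2 were all on the lower side by their brightest probe sets. Most of the list is cartilage matrix genes, and a part of the members in these values was not tested. Of 13 measured, 8 were past 2-fold on the lower side and 0 on the higher, and the median was −1.62. Sox9, the main chondrocyte transcription factor gene, which forms a loop with Nkx3-2, read 1024 and 94.8, a log2 ratio of −3.43. That value is next to the −3.45 of Meox1, while the bound for Nkx3-2 lay above 0. Acan, the aggrecan gene, read 5066 and 157, and Hapln1 read 3305 and 353. Matn1, which encodes a matrilin of the cartilage matrix, read 5311 and 958 and was 5.54-fold lower.

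Genes of osteoblasts and hypertrophic chondrocytes listed as targets of Dlx5, Dlx6 and Msx2 followed no single direction. Of 8 measured, 4 were past 2-fold on the lower side and 1 on the higher, and the median was −0.43. These counts depend on the floor: 3 were past 2-fold on the higher side with the floor at the 30th percentile or with none, and 0 were higher and 1 lower with it at the 70th percentile. The median was −0.09 at the 30th percentile and −1.03 with no floor. Sp7, the osteoblast transcription factor gene that Dlx5 activates, read 125 and 41.6 and was 3.01-fold lower. Ibsp, of the same list, read 71.3 and 81.0, a log2 ratio of 0.18. A part of Dlx5 in these values was not tested. Pth1r, a receptor gene of maturing chondrocytes, read 150 and 58.3 and was 2.57-fold lower. Panx3 read 364 and 14.6, with only the control signal above the floor, and was at least 12.2-fold lower. Col10a1, the collagen gene of hypertrophic cartilage, stood on the other side, with 30.8 and 181, and was 5.88-fold higher, a ratio that rests on a control signal just above the floor of 26.5. Runx2, a partner of Dlx5 and Nkx3-2, was not analysed here.

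The protein-coding genes on either side of the members in the RefSeq gene order, added after the values were seen, gave no ratio or bound past 2-fold. Of 18 such neighbours, members left out, 15 were on the array and 9 were measured. Of these 9, 0 were past 2-fold in either direction, beside 6.54% higher and 4.34% lower over all measured genes. With so few genes that count says little, and Foxa2 and Arhgap32 have only a bound. Next to Dlx5 and Dlx6, Sdhaf3 read 317 and 263 and Sem1 read 2799 and 2810. Both neighbours of Meox1, Etv4 and Sost, were below the floor on both arrays. Foxa2, next to Pax1, read 39.4 and 19.0 and was above the floor on the control array only. Its log2 ratio is at most −0.41, so a fall past 2-fold cannot be read or excluded.

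Marker lists of other cell types near the joint were also read, since several of the 10 genes are also expressed in muscle, vessel or nerve precursors. Skeletal muscle markers summed to 508 in control and 506 with retinoic acid over 10 genes, 6 of them measured. The myogenic factor genes Myod1, Myf5 and Myf6 were below the floor on both arrays, whereas the fourth, Myog, was above it on both (39.96 and 52.2), as were Acta1 (177 and 227), Myh3 (63.0 and 60.4), Ckm (46.2 and 31.0) and Des (114 and 50.3). Endothelial markers summed to 145 and 156 over 8 genes, 3 of them measured. Egfl7 was above the floor on both arrays (40.1 and 45.7), Kdr with retinoic acid only (25.4 and 36.6) and Esam in control only (28.7 and 18.4), and the other 5, Pecam1, Cdh5, Tie1, Tek and Emcn, were below it on both. Blood and macrophage markers summed to 516 and 550 over 8 genes, 5 of them measured. Lyz2 (336 and 354), Csf1r (60.3 and 53.7), Cd68 (34.9 and 43.2) and Adgre1 (31.9 and 33.8) were above the floor on both arrays, and Ptprc, Itgam and Tyrobp were below it on both. Tendon markers summed to 11947 and 8115 over 7 genes, all measured, with 3 past 2-fold on the lower side (1 with the floor at the 70th percentile) and 1 on the higher. Fmod alone made up 8768 and 4132, and the other 6 summed to 3179 and 3983, which is higher with retinoic acid. Egr1, 1 of these 6, read 992 and 2420. Of the 7 tendon genes 5 lay below 0, and the median log2 ratio of the 7 was −0.89 (−0.28 with the floor at the 70th percentile). Scx, 1 of the 3 past 2-fold on the lower side, had a log2 ratio of −1.25 with its brighter probe set and 0.28 with the other. Schwann cell markers summed to 926 and 176 over 5 genes on the array, of which S100b, also a chondrocyte gene, made up 842 and 74.3, and the other 4 summed to 84.2 and 102. Smooth muscle and pericyte markers summed to 4945 and 6007 over 8 genes, with a median log2 ratio of 0.06. Of 7 measured, 4 lay above 0 and 3 below. Past 2-fold were 1 on the higher side, Rgs5 (44.5 and 130), and 2 on the lower, Cspg4 (789 and 84.9) among them. Tagln read 632 and 1259. Acta2 alone made up 3165 and 4340, and the other 7 summed to 1780 and 1667. Without the brightest gene the summed tendon, Schwann and smooth muscle signals each went the other way. Those remainders also lean on single genes, Egr1 for tendon and Cspg4 for smooth muscle, so the sums give no direction for these cell types. The part of these cells in the values of Meox1, Dlx5 and Pax1 was not tested.

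**Figure D4:**
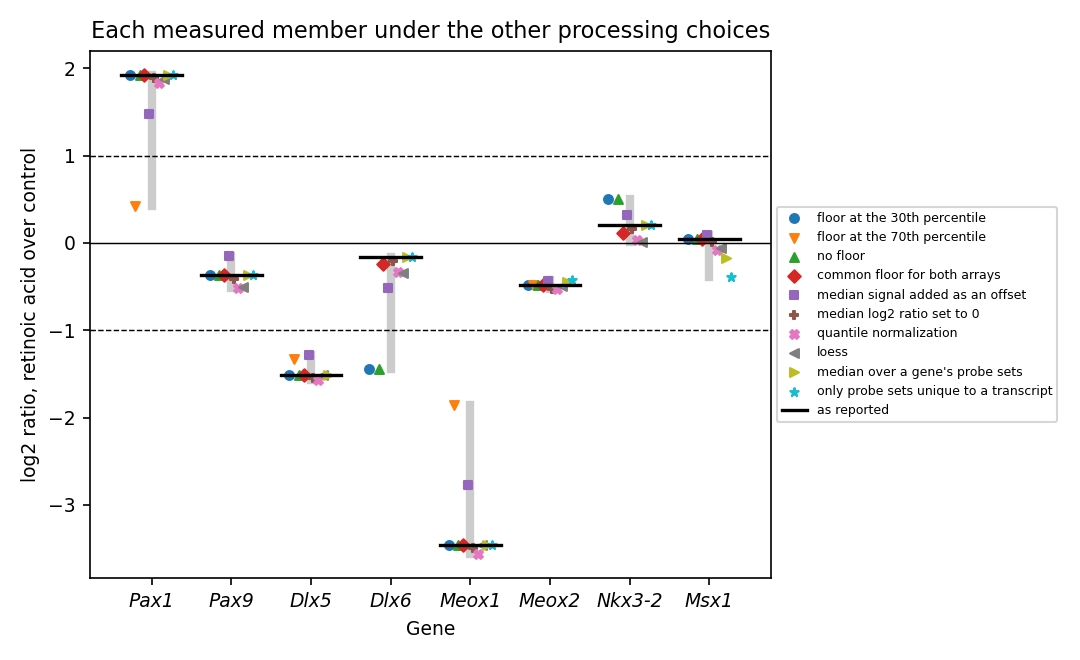
Log2 ratio of retinoic acid over control for each of the 8 measured members as reported (black bar) and under up to 10 other processing choices (symbols), with dashed lines at 2-fold. Meox1 stays below −1 under every choice shown and Dlx5 under all 9 that read it, Pax1 drops to 0.42 with the floor at the 70th percentile, and Dlx6 reaches −1.44 with a lower floor or none.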

How the data were processed

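The deposited values are intensities, 1 MAS5 signal per probe set and culture on a linear scale; MAS5 is named in the submitters' processing notes, and no version, scaling target or detection call accompanies it there. Values were used as deposited by the authors, with no further scaling. Of 45101 probe sets 64 were controls, and 34945 had 1 gene symbol in the platform annotation; 932 with several and 9160 with none were left out. All 16 member probe sets had the same symbol in a current RefSeq table. Ratios run from control to retinoic acid on the log2 scale. No test was run with 1 array per group, and the number of arrays limits the precision. The members and gene lists were chosen with earlier results of these data known. Named genes were all 10 members, all measured retinoic acid responders and, from each other list, up to 4 measured genes with the largest absolute ratio. The cell type lists were an exception. The genes named from them, and any others, were chosen after their values were seen. Counting was tested on simulated data. Python 3.11.15, numpy 2.4.6, pandas 2.3.3, statsmodels 0.14.6 and matplotlib 3.10.9 were used.

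Alternatives were no floor, a floor at the 30th percentile or at the 70th, a common floor, the median signal as an offset, the median log2 ratio set to 0, quantile normalization, loess (span 0.3), each gene's median across its probe sets, and only probe sets unique to a transcript.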

Additional observations from a re-analysis of the deposited data

How the results depend on the processing

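With the floor at the 70th percentile, 0 members were at least 2-fold higher, since Pax1 has only a bound there, the members' median log2 ratio was −0.90, and over all measured genes 449 were past 2-fold on the higher side and 260 on the lower. With no floor the members' median was −0.60 over all 10 genes, and 2137 of all genes were higher and 2106 lower. With the floor at the 30th percentile 832 of all genes were lower and 3 members were, Dlx6 (−1.44) being the third. With only probe sets unique to a transcript 1 member was at least 2-fold lower, because that choice drops the single probe set of Dlx5. The other counts and medians of members stayed within 1.5 times, or within the 0.30 scatter between probe sets, of the values reported. No single member past 2-fold changed sign under the alternatives that read it, with log2 ratios of −3.56 to −1.86 for Meox1, −1.57 to −1.29 for Dlx5 and 0.42 to 1.93 for Pax1. Msx1 took either sign (−0.39 to 0.09). Of 419 list values under the alternatives, 50 moved by more than those limits. The alternatives say nothing about variation between cultures, and signals below an array's median set the limit for Msx2, Barx2, Dlx6 and Nkx3-2.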
